A study of Mus musculus with 6 samples.

Results

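The keratin and bile duct epithelial genes Krt8, Krt18, Krt19, Krt7, Krt23, Epcam, Sox9 and Cldn7 were followed through 6 RNA-seq libraries of mouse neutrophils. These 8 genes were taken by symbol from the 53090 gene rows, and each symbol had 1 row. In the 3 libraries from liver, Krt8 and Krt18 were higher than in the 3 libraries from blood, and like all 13 measured hepatocyte markers they were lowest in liver library 1. Krt7, a keratin of bile ducts, was lower in the liver libraries, and the other 5 genes had 0 to 17 counts per library.

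Both groups were Ly6G-selected cells of mice fed for 1 week a diet with 3,5-diethoxycarbonyl-1,4-dihydrocollidine (DDC), so the blood libraries carry the diet too and no untreated mouse was part of the comparison. Ly6G is a surface protein of mouse neutrophils. The liver group was selected with magnetic beads after a Percoll density gradient, and the blood group after lysis, so the preparation differed between the groups in every library. The labels give no strain, age or batch. Beyond a stated n of 3 they do not say that each library was a separate mouse, and p-values here measure only how these samples vary.

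Keratins build the intermediate filaments of epithelial cells from pairs of 1 type I and 1 type II chain. In mouse liver, hepatocytes make keratin 8 (type II) and keratin 18 (type I), while the epithelial cells of the bile ducts add keratin 7 (type II) and keratin 19 (type I), the adhesion protein EpCAM, the transcription factor SOX9 and the tight-junction protein claudin 7. The DDC diet injures the ducts, sets off a proliferation of duct-like cells and, with longer feeding, produces hepatocyte inclusions called Mallory-Denk bodies, which hold keratins 8 and 18 and the adaptor p62. Neutrophils are not known as a keratin-rich cell type.

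Total counts ran from 13778681 to 17579669 per liver library and from 13054673 to 14403803 per blood library. Each liver library had more genes detected (19238 to 21540) than any blood library (17822 to 18558). More genes of a list detected in liver is thus by itself no evidence of a difference in that list. Values are given as CPM, counts scaled to library size with TMM factors, on which 3 counts equal 0.181 to 0.196 CPM in liver and 0.201 to 0.263 CPM in blood. Of 13458 genes that passed the filter on low counts, edgeR's quasi-likelihood test called 2336 higher in liver (17.4%) and 1916 lower (14.2%) at an adjusted p under 0.05. Of the 8 genes, 3 passed that filter, and of these 2 were called higher and 1 lower. The 2 called higher, Krt8 and Krt18, had at most 5 counts in a blood library and passed it through the liver libraries alone. The same 3 had groups that did not overlap, 2 with every liver library above every blood library (25.8% of all tested genes) and 1 with every liver library below (22.7%). Ly6g was lower in the liver libraries (8.39 ± 3.70 against 30.2 ± 13.4 CPM in blood, SD, n = 3 each; log2 fold change -1.84, adjusted p by edgeR 0.00980). Of 11 neutrophil identity genes, 8 were called lower and none higher. Of 5 monocyte markers, 4 were called higher and none lower, and the 5 were summed at 740 to 1120 CPM in liver, against 63.3 to 127 CPM in blood. Most of the liver sum was Fn1, and the marker not called was Ly6c2. In such bulk samples fewer cells of a type and less RNA per cell cannot be told apart.

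**Figure D1:**
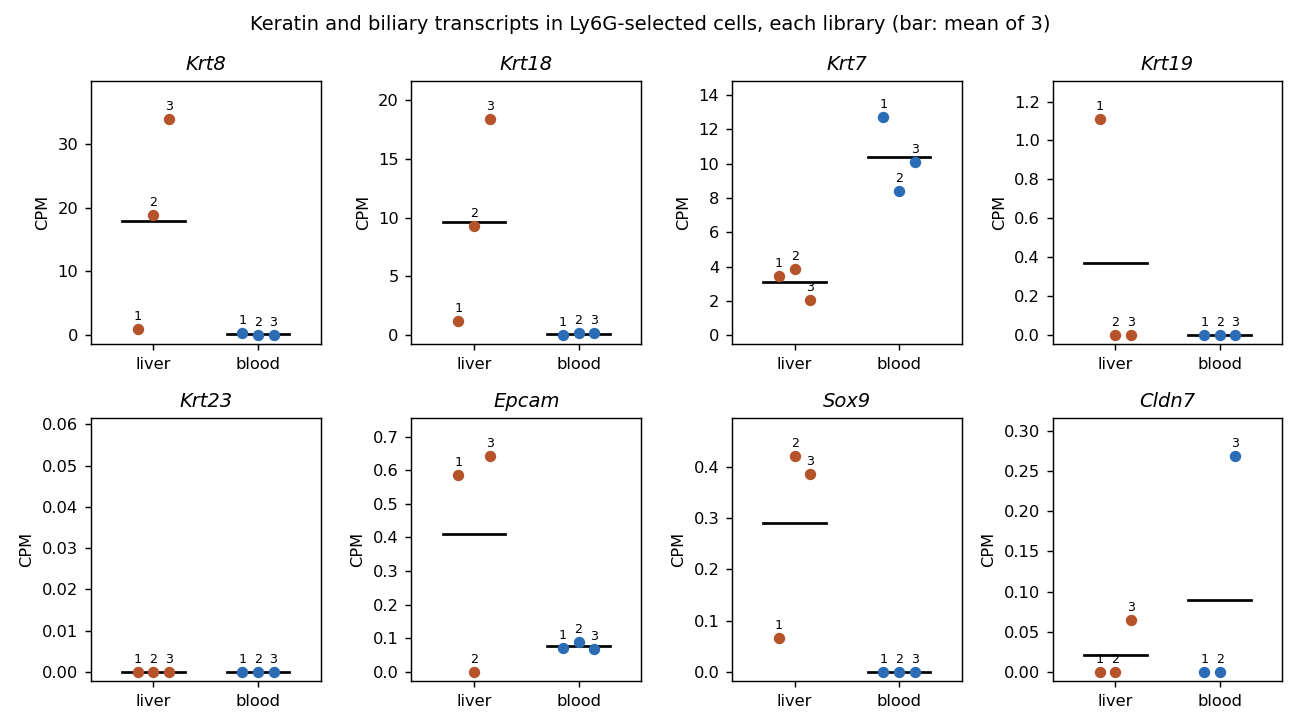
CPM of each of the 8 genes by library (points; linear scale, with a bar at the mean of 3), the 3 liver libraries left of the 3 blood libraries. Krt8 and Krt18 span 0.979 to 33.9 CPM in liver and reach at most 0.359 CPM in blood, while Krt7 is at 2.06 to 3.85 CPM in liver and 8.41 to 12.7 CPM in blood.

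Krt8 encodes keratin 8, the type II chain of simple epithelia and the only type II keratin that hepatocytes normally make. The gene lies on chromosome 15 from 101996698 to 102004482 on the minus strand (GRCm38, GENCODE release 21 for mouse). Krt8 had 15, 313 and 527 counts in liver libraries 1, 2 and 3, against 5, 0 and 0 counts in blood libraries 1, 2 and 3. In CPM these were 0.979, 18.9 and 33.9 in liver, against 0.359, 0 and 0 in blood. The groups did not overlap, but liver library 1 stood far below liver libraries 2 and 3. Krt8 averaged 17.9 ± 16.5 CPM in liver, against 0.12 ± 0.207 CPM in blood (SD, n = 3 each). The log2 fold change was 7.08 ± 1.66 (SE), with an adjusted p of 0.0207 by edgeR's quasi-likelihood test. That size rests on the 5 counts of blood library 1, and the ratio of summed counts was 145, with an exact 95% interval of 61.8 to 447 for counting error only. Krt8 was called in 5 of 13 alternative settings. The call was lost in edgeR without liver library 2 (adjusted p 0.0502), without blood library 1 (0.0535), 2 (0.0815) or 3 (0.0683), with liver library 3 and blood library 1 both left out (0.0837) and with no filter on low counts (0.112), and it was lost in limma-voom (0.265). An edgeR fit with the replicate number as a block lost it too (0.0906).

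Krt18 encodes keratin 18, the type I partner of keratin 8, and lies 23.7 kb from Krt8 on the plus strand, from 102028180 to 102032027. Krt18 had 18, 154 and 286 counts in liver libraries 1, 2 and 3, against 0, 2 and 3 counts in blood libraries 1, 2 and 3. Its CPM values were 1.17, 9.27 and 18.4 in liver, against 0, 0.175 and 0.201 in blood. The order of the liver libraries was that of Krt8, and again no blood library reached the lowest liver library. Krt18 averaged 9.62 ± 8.62 CPM in liver, against 0.126 ± 0.11 CPM in blood (SD, n = 3 each), with a log2 fold change of 6.18 ± 1.2 (SE) and an adjusted p of 0.00686 by edgeR. The ratio of summed counts was 77.6 (exact 95% interval 33.0 to 240). The call held without any single library, and was lost with limma-voom (adjusted p 0.136). A noncoding gene on the opposite strand, Gm36026, overlaps the first bases of Krt8 and was not analysed here.

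The stretches of sequence just before the start of the main annotated transcript of both genes are shown because these neighbours were high in the same libraries. They are from RefSeq (GRCm38.p6), written 5′ to 3′ on the strand of the gene, chr15:102004483-102004592 on the minus strand for Krt8 and chr15:102027966-102028179 on the plus strand for Krt18.
Krt8: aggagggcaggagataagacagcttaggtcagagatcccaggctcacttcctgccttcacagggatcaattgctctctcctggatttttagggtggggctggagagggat
Krt18: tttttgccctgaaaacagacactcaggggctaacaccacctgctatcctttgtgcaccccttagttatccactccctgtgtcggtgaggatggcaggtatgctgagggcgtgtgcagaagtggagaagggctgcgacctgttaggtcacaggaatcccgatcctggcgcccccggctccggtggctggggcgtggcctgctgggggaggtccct
Each 250-base RefSeq window before the start was searched on both strands for a TATA box (TATAAA, present in 12.4% of 32851 windows), a CCAAT box (CCAAT, 33.8%), a GC box (GGGCGG, 32.7%), an AP-1 motif (TGANTCA, 6.75%), an ETS motif (GAGGAAG, 10.6%), a C/EBP motif (TTGCNNAA, 9.56%) and an HNF1 motif (GTTAAT, 6.43%). The windows of Krt8 and Krt18 held none of these letter strings, which is why no capitals stand in the sequences above. Their GC content was 58.0% for Krt8 and 60.4% for Krt18, against a median of 52.4% over all windows.

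All 13 hepatocyte markers with a row were, like Krt8 and Krt18, lowest in liver library 1. Of these, 9 had the order of Krt8, with liver library 3 highest, and 4 (Fga, Fgb, Fgg and Cyp2e1) were highest in liver library 2. Alb, the gene of serum albumin, had 7.25, 73.2 and 148 CPM in liver libraries 1, 2 and 3, against 2.44, 0.0876 and 0.47 CPM in blood libraries 1, 2 and 3 (log2 fold change 6.21, adjusted p by edgeR 0.0297). Leaving out liver library 2 (0.0792) or 3 (0.0663), or blood library 2 (0.1) or 3 (0.0768), ended that call, as did no filter on low counts (0.105) and limma-voom (0.261). All 13 were detected in the liver libraries and 12 in the blood libraries, where Fgg was at 0. All 6 that could be tested were called higher in liver, and their median log2 fold change was 5.17, against 0.04 over all tested genes. With so few blood counts these 6 could pass the filter on low counts only through the liver libraries. Their direction was thus largely set by the filter, and neither their number nor their median is evidence of a difference. All 13 together summed to 17.5, 143 and 252 CPM in liver, against 4.96, 0.964 and 0.873 CPM in blood. Blood library 1, which held all 5 Krt8 counts of the blood group, was the blood library with the highest hepatocyte sum. Krt18 had 0 counts in that library, and its blood counts lay in blood libraries 2 and 3, where the hepatocyte sum was lower. The Kupffer cell, platelet and erythroid sums were also highest in blood library 1. The part of these transcripts in the differences of Krt8 and Krt18 was not tested.

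Of the CPM of Krt8 summed over the 3 liver libraries, liver library 1 held 1.82%, liver library 2 35.1% and liver library 3 63.1%. Krt18 was split 4.07%, 32.2% and 63.8% over the same libraries, and Alb 3.17%, 32.0% and 64.8%. From liver library 1 to liver library 3 the factor was 34.6 for Krt8, 15.7 for Krt18, 20.5 for Alb and 14.4 for the hepatocyte sum. Hnf4a, a transcription factor of hepatocytes that is low in duct cells, had a factor of 7.28. Of the Kupffer cell markers, 3 of 10 had the order of Krt8 (C1qa, C1qb and C1qc), as did none of 8 liver endothelial markers and 1 of 9 stellate cell and fibroblast markers (Col1a1). Liver library 3 was, however, the highest for 8 of the 10 Kupffer cell markers, so that peak was not particular to keratins and hepatocyte markers. It was the highest for 2 of the 8 endothelial and 2 of the 9 stellate cell and fibroblast markers. Only 3 of the 10 Kupffer cell markers were lowest in liver library 1. The 10 Kupffer cell markers, all detected in both groups, were summed at 634, 456 and 822 CPM in liver libraries 1, 2 and 3, against 499, 406 and 328 CPM in blood libraries 1, 2 and 3. Most of that sum was Csf1r in every library but liver library 3, where Csf1r was 388 of the 822 CPM. Csf1r averaged 360 ± 59.4 CPM in liver, against 326 ± 34.3 CPM in blood (SD, n = 3 each). The 8 liver endothelial markers, also all detected in both groups, were summed at 35.3, 21.1 and 34.7 CPM in liver, against 19.3, 14.9 and 15 CPM in blood. Clec4f, a lectin found on Kupffer cells, had 17, 5.12 and 59.8 CPM in liver libraries 1, 2 and 3, and 5 counts over all blood libraries.

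**Figure D2:**
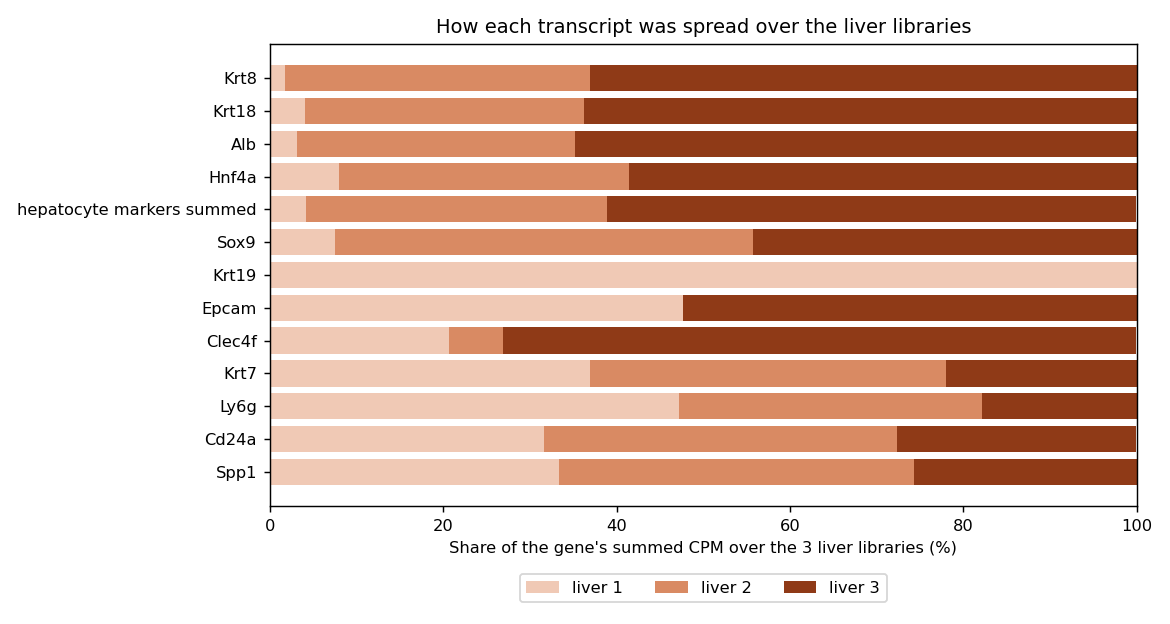
Share (%) of each transcript's CPM, summed over the 3 liver libraries, that came from each of them (stacked bars; blood is not drawn). Krt8, Krt18, Alb, Hnf4a and the hepatocyte sum have 1.82% to 8.04% in liver library 1 and 58.6% to 64.8% in liver library 3, whereas Krt7, Spp1 and Cd24a have 22% to 27.6% in liver library 3 and Krt19 lies wholly in liver library 1.

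Within libraries, the counts of the keratins can be set against those of Alb. Krt8 had 13.5 counts per 100 Alb counts in liver library 1 (exact 95% interval 7.32 to 23.3), 25.8 in liver library 2 (22.7 to 29.2) and 22.9 in liver library 3 (20.8 to 25.1). Krt18 had 16.2 (9.27 to 26.8), 12.7 (10.6 to 15) and 12.4 (10.9 to 14.0). These intervals overlap across the 3 libraries for Krt18, and for Krt8 the interval of liver library 1 meets the others only at its upper end. Per transcript length, the level of Krt18 relative to Krt8 was 1.64 in liver library 1 (0.778 to 3.49), 0.67 in liver library 2 (0.549 to 0.816) and 0.739 in liver library 3 (0.638 to 0.856).

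The 5 tested, named protein-coding genes whose log2(CPM + 0.5) followed Krt8 most closely over the 6 libraries were Chdh, Serpina1b, Pck1, Gc and Bcl2l15, with Pearson r from 0.991 to 0.996. These are descriptions over 6 libraries in 2 groups that differ in level, with no test. Serpina1b, a gene of the secreted protease inhibitor alpha-1-antitrypsin, had 1.37, 17.6 and 22.5 CPM in liver libraries 1, 2 and 3, against 0.287, 0 and 0 CPM in blood. Pck1, a gluconeogenic enzyme, had 0.783, 9.27 and 17 CPM in liver libraries 1, 2 and 3.

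Apart from Krt7, the members that mark bile duct cells were close to 0. Krt19 encodes keratin 19, the type I keratin most used to mark ducts, and lies on chromosome 11 from 100140810 to 100148665. Krt19 had 17, 0 and 0 counts in liver libraries 1, 2 and 3, against 0 counts in each blood library. Its only counts thus came from the liver library with the lowest Krt8 and Krt18, at 1.11 CPM. Summed over the group, liver was at least 4.8-fold above a floor of 3 counts over the blood group. With counts in 1 library only, a two-sided exact permutation test over libraries gives p = 1.0 whatever their number, so it decides nothing here. Krt23, a type I keratin of duct-like cells on chromosome 11 from 99477974 to 99493137, had 0 counts in all 6 libraries, which allows up to 0.181 to 0.196 CPM in a liver library.

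Epcam, on chromosome 17 from 87635979 to 87651129, encodes the epithelial cell adhesion molecule of duct and progenitor-like cells. Epcam had 9, 0 and 10 counts in liver libraries 1, 2 and 3, against 1 count in each blood library. The groups overlapped, because liver library 2 had none. Epcam averaged 0.41 ± 0.356 CPM in liver, against 0.0755 ± 0.0107 CPM in blood (SD, n = 3 each; two-sided exact permutation p = 0.4), and the ratio of summed counts was 5.37 (exact 95% interval 1.58 to 28.3). Its 5 closest genes by the same measure were Ptprj, Iba57, Jag1, Apmap and Lclat1, with r from 0.972 to 0.994, but with 22 Epcam counts in all these rest on few reads. Jag1, a NOTCH ligand, had 7.05, 1.81 and 7.20 CPM in liver libraries 1, 2 and 3.

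Sox9, on chromosome 11 from 112782224 to 112787760, encodes the transcription factor that marks duct cells and hepatocytes turning duct-like. Sox9 had 1, 7 and 6 counts in liver libraries 1, 2 and 3, against 0 counts in each blood library. The 14 liver counts put the group at least 3.95-fold above a floor of 3 counts over the blood group, and the two-sided exact permutation p was 0.1, the smallest that 3 against 3 libraries allow. Cldn7, on chromosome 11 from 69964779 to 69967885, encodes a claudin that binds EpCAM. Cldn7 had 1 count in liver library 3 and none in the other liver libraries, against 4 counts in blood library 3 and none in the other blood libraries, a ratio of 0.212 (exact 95% interval 0.0043 to 2.14). At this depth no difference of Cldn7 was detectable.

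Krt7 went the other way. It encodes keratin 7, the type II keratin of ducts, and lies on chromosome 15 from 101411043 to 101430313 on the plus strand. Krt7 had 53, 64 and 32 counts in liver libraries 1, 2 and 3, against 177, 96 and 151 counts in blood libraries 1, 2 and 3. In CPM these were 3.46, 3.85 and 2.06 in liver, against 12.7, 8.41 and 10.1 in blood. Every liver library was below every blood library, and liver library 3, the highest in Krt8 and Krt18, was the lowest in Krt7. Krt7 averaged 3.12 ± 0.944 CPM in liver, against 10.4 ± 2.17 CPM in blood (SD, n = 3 each). It fell 3.33-fold in liver, with a log2 fold change of -1.74 ± 0.37 (SE) and an adjusted p of 0.00719 by edgeR. The call held without any single library, and was lost with liver library 3 and blood library 1 both left out (-1.36, adjusted p 0.0586).

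In the blood libraries Krt7 counts came without its usual partners, since Krt19 and Krt23 were at 0 there and Krt18 had 5 counts in all. An antisense gene, Gm671, overlaps the upstream part of Krt7, from 101395427 to 101412311 on the minus strand. It was not analysed here, and neither the labels nor the notes say whether counting used strand, so reads from it and from Krt7 cannot be told apart. The Krt7 sequence is shown because it differs from those of Krt8 and Krt18 in GC boxes, which are in capitals (GGGCGG, or CCGCCC where the box lies on the other strand). It is from RefSeq (GRCm38.p6), chr15:101412153-101412401 on the plus strand.
Krt7: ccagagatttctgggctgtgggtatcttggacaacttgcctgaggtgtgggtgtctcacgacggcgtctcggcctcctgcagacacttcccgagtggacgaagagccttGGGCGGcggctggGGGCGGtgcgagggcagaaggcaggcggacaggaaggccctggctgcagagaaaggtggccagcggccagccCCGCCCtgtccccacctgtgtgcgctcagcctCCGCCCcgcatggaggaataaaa
Its window had a GC content of 66.0% and 4 GC boxes, which began, as printed, 141 and 128 bases before the RefSeq start on the strand of the gene and 56 and 24 bases before it on the other. At least 1 GC box was in 32.7% of all windows, and none of the other 6 strings was found in the window of Krt7. Of the 8 genes, 6 were in the promoter table. In the windows of the less expressed genes, Epcam had a GC box, Cldn7 a GC box and a pair of ETS motifs, and Krt23 a C/EBP motif.

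Markers of several blood cell types had lower mean summed levels in liver beside Krt7, although those of erythroid cells and lymphocytes overlapped between the groups. The sum of the monocyte markers went the other way, at 740 to 1120 CPM in liver, against 63.3 to 127 CPM in blood. Most of it in liver was Fn1, with 573, 542 and 856 CPM in liver libraries 1, 2 and 3. Ccr2, F13a1 and Cx3cr1 were also called higher, but Ly6c2 was not called, with 13.9 ± 2.34 CPM in liver, against 17.6 ± 2.47 CPM in blood. Neutrophil markers were summed at 9770, 12000 and 6820 CPM in liver libraries 1, 2 and 3, against 19500, 30500 and 21000 CPM in blood libraries 1, 2 and 3. Platelet markers were summed at 7.57, 15.4 and 14.2 CPM in liver, against 199, 62.0 and 34.4 CPM in blood, and 3 of 5 were called lower. Erythroid markers were summed at 2060, 2730 and 142 CPM in liver, against 33600, 14700 and 366 CPM in blood (median log2 fold change of 5 genes -3.38). Their sum and Krt7 were both highest in blood library 1. From blood library 2 to blood library 3, however, Krt7 was higher while the erythroid sum was far lower. Lymphocyte markers were summed at 20.6, 12.8 and 19.3 CPM in liver, against 46.0, 89.4 and 16.8 CPM in blood, and 3 of 9 were called lower. Their part in the Krt7 difference was not tested. Among the genes that followed Krt7 most closely over the 6 libraries, a comparison added after its values were seen, were Ino80c, Arhgap1, Xpr1 and Gapt (r from 0.993 to 0.996). Gapt, an adaptor protein gene of blood cells, had 14.7, 17.1 and 12.2 CPM in liver libraries 1, 2 and 3, against 30.5, 26.7 and 27.5 CPM in blood libraries 1, 2 and 3 (log2 fold change -0.94, adjusted p by edgeR 0.0139), a call lost with liver library 3 and blood library 1 both left out (0.0953).

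Only levels per length can be compared between genes. In liver, the mean CPM per kilobase of the main transcript was 9.15 ± 8.42 for Krt8, 6.69 ± 6.0 for Krt18, 0.763 ± 0.231 for Krt7, 0.235 ± 0.407 for Krt19, 0.201 ± 0.175 for Epcam, 0.0704 ± 0.0475 for Sox9 and 0.0161 ± 0.0278 for Cldn7 (SD, n = 3). Each neighbouring pair in that order overlapped in its library values. In liver library 1 the order was another one, with Krt7 at 0.845, Krt18 at 0.818, Krt19 at 0.704 and Krt8 at 0.5. In blood, Krt7 stood at 2.55 ± 0.53 CPM per kilobase, and its lowest library, at 2.05, was above every blood library of the other 7 genes, of which the highest was Cldn7 at 0.201.

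Krt7, Krt8 and Krt18 belong to 1 keratin cluster on chromosome 15, where 27 keratin genes had a row. Counts in it came from both ends. At 1 end, within 144.1 kb, lay Krt80, Krt7, Krt87, Krt88, Krt81, Krt86 and Krt83, and at the other Krt8 and Krt18. Between Krt83 and Krt8, over 505.2 kb, 18 keratin genes had 9 counts in all 6 libraries together, at most 5 in a library, and 14 of them, including Krt5, had none.

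**Figure D3:**
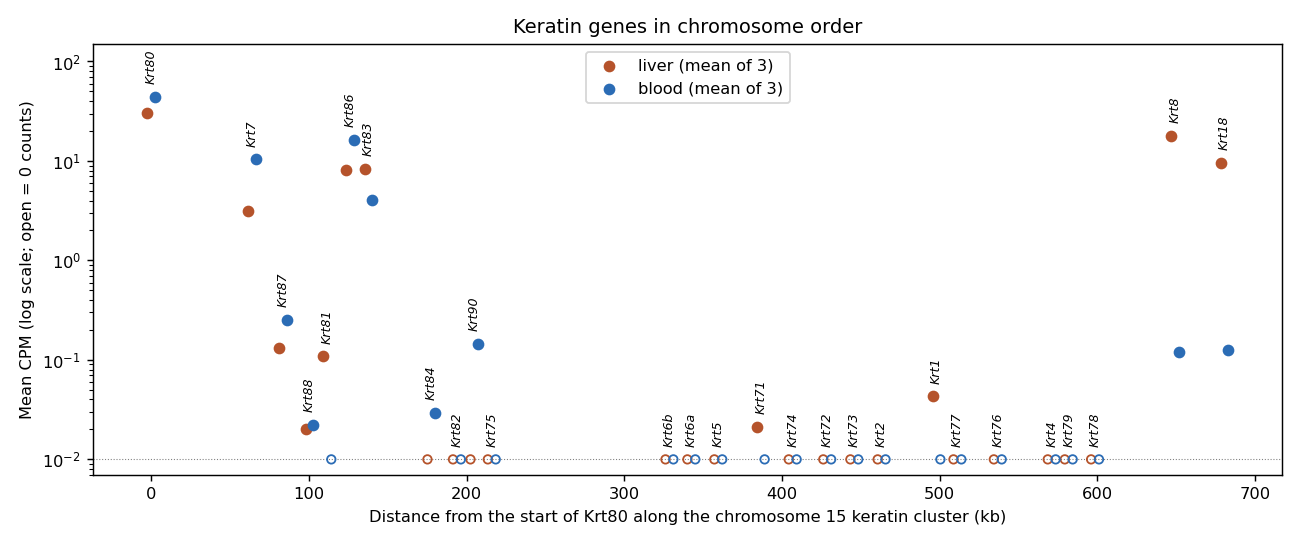
Mean CPM over 3 libraries (log scale; open symbols on the dotted line, 0 counts) of each keratin gene of the chromosome 15 cluster against distance from the start of Krt80 in kb, liver drawn left of blood at each gene. Krt7, Krt80 and Krt86 have higher means in blood than in liver, Krt83, Krt8 and Krt18 higher means in liver, and 18 genes between Krt83 and Krt8 have at most 5 counts in any library.

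Krt80, a type II keratin of differentiating epithelia, was the keratin with the most counts in these libraries. It had 609, 390 and 451 counts in liver libraries 1, 2 and 3, against 695, 430 and 675 counts in blood libraries 1, 2 and 3, or 30.7 ± 8.27 CPM in liver, against 44.3 ± 6.20 CPM in blood (SD, n = 3 each; log2 fold change -0.53, adjusted p by edgeR 0.122). Krt86, a hair keratin, fell in liver, to 8.16 ± 1.69 CPM, against 16.4 ± 3.83 CPM in blood (log2 fold change -1.01, adjusted p by edgeR 0.0292). That call was lost without liver library 2 (adjusted p by edgeR 0.0817), liver library 3 (0.0769) or blood library 1 (0.0920), and with liver library 3 and blood library 1 both left out (0.188). Krt83, another hair keratin, had 221, 63 and 105 counts in liver libraries 1, 2 and 3, against 43, 72 and 39 in blood libraries 1, 2 and 3, and was not called (log2 fold change 1.06, adjusted p by edgeR 0.162). The main transcripts of Krt86 and Krt83 were 94.8% identical over 1357 aligned columns, so their reads may have been split wrongly. Krt7 and Krt8 were 75.0% identical over 1077 columns. A processed pseudogene, Krt8-ps, was 98.6% identical to Krt8 over 941 columns and had 6 counts, all in liver, and adding them left the log2 fold change of Krt8 at 7.09 (adjusted p by edgeR 0.0207).

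Beyond the members, 49 other keratin genes had a row, of which 34 had 0 counts in all 6 libraries, among them the stratified-epithelial keratins Krt5, Krt14 and Krt17. Counts were found for 13 of the 49 in liver and for 9 in blood, where fewer genes were detected in general. Only Krt80, Krt83 and Krt86 could be tested, of which 1 was called lower and none higher in liver. Of 32 other claudins, 16 were at 0 throughout and 3 could be tested. Cldn1, a tight-junction claudin of many epithelia, rose in liver to 13.1 ± 2.31 CPM, against 5.12 ± 2.35 CPM in blood (log2 fold change 1.35, adjusted p by edgeR 0.0225), a call lost without liver library 1 (0.0718), liver library 3 (0.0597), blood library 2 (0.0731) or blood library 3 (0.0717). Of 18 other Sox genes none had enough counts for a test. Sox18, a transcription factor of endothelial cells, had 22, 19 and 1 counts in liver libraries 1, 2 and 3, against 0 in each blood library.

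A wider list of 18 duct markers gave little more. In it 14 genes were detected in liver and 11 in blood, while Pkhd1 and Sctr were at 0 in all 6 libraries. Cftr, the chloride channel of duct cells, had 2 counts in liver and 0 in blood. The list's sum, 958, 1200 and 808 CPM in liver libraries 1, 2 and 3 against 752, 942 and 709 CPM in blood libraries 1, 2 and 3, was mostly Cd24a, a surface protein also made by blood cells, with 834 ± 168 CPM in liver, against 607 ± 74.0 CPM in blood (SD, n = 3 each; log2 fold change 0.46, adjusted p by edgeR 0.141). Of the 7 that could be tested, 1 was called higher and 1 lower, with a median log2 fold change of 0.46. Spp1, the gene of osteopontin, which ducts and macrophages both make, had 55.9, 68.3 and 43.0 CPM in liver libraries 1, 2 and 3 and averaged 55.7 ± 12.7 CPM there, against 2.04 ± 0.592 CPM in blood, a 27.4-fold rise (adjusted p by edgeR 6.72e-05). Its liver libraries were not ordered like those of Krt8.

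**Figure D4:**
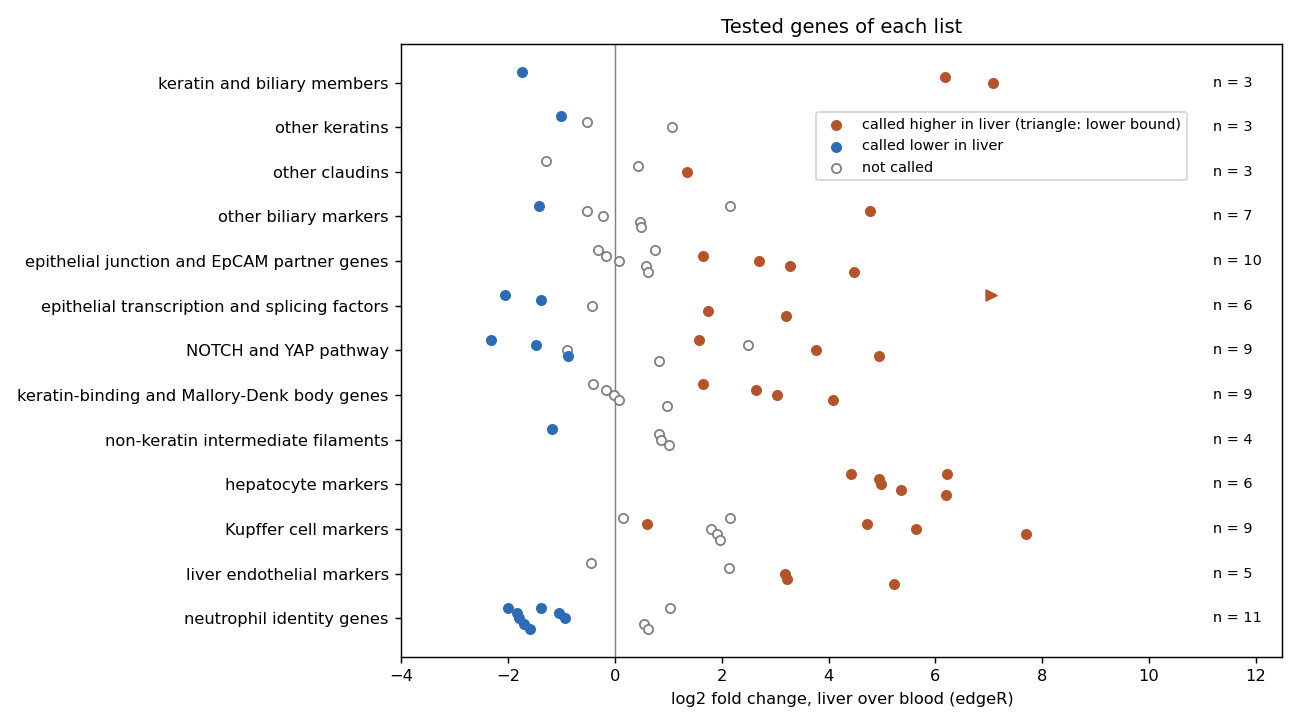
log2 fold change, liver over blood, of every tested gene of each list drawn (points; filled where edgeR's adjusted p was under 0.05; n, the number tested). The monocyte, lymphocyte, platelet, erythroid, and stellate cell and fibroblast lists are not drawn. All 6 tested hepatocyte markers, which could pass the filter only through the liver libraries, are called higher, with a median of 5.17. Of 11 neutrophil identity genes, 8 are called lower, with a median of -1.39. The triangle is Hnf4a, drawn at its lower bound of 131-fold because it had 0 counts in blood.

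Genes of epithelial junctions and partners of EpCAM were called higher in 4 of 10 tested and lower in none, with a median log2 fold change of 0.69. Over all tested genes 17.4% were called higher. Dsp (4, 3 and 22 blood counts), Tjp1 (8, 3 and 2) and Spint1 (0, 2 and 0) could not pass the filter through the blood libraries alone. Their direction was thus largely set by the filter, and neither the number called nor the median is evidence of a difference. Of 19 with a row, 18 were detected in liver and 14 in blood. Jup, encoding the desmosome protein plakoglobin, rose to 12.4 ± 2.23 CPM in liver, against 3.97 ± 1.91 CPM in blood (log2 fold change 1.64, adjusted p by edgeR 0.0137), a call lost without liver library 1 (0.0519) and with liver library 3 and blood library 1 both left out (0.0582). The other 3 called genes fall outside the naming rule and were chosen after their values were seen. Dsp, the desmosomal plakin that anchors keratins, had 6.77 ± 3.52 CPM in liver, against 0.676 ± 0.694 CPM in blood, Tjp1 had 2.16 ± 0.561 CPM in liver, against 0.324 ± 0.227 CPM in blood, and the protease inhibitor gene Spint1 had 1.33 ± 0.713 CPM in liver, against 0.0584 ± 0.101 CPM in blood. Leaving out single libraries ended the calls of Tjp1 (liver 2, blood 2 or blood 3, adjusted p by edgeR 0.0625 to 0.0646) and Spint1 (liver 2, blood 1 or blood 3, 0.0627 to 0.0668), and leaving out liver library 3 with blood library 1 those of Dsp (0.0649) and Spint1 (0.0518). Tjp3 and Spint2 were not called, with log2 fold changes of 0.59 and -0.16.

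Keratin-binding and Mallory-Denk body genes were called higher in 4 of 9 tested and lower in none, with a median log2 fold change of 0.97. Over all tested genes 17.4% were called higher. Of the 4, Evpl (21, 4 and 12 blood counts) could not pass the filter on low counts through the blood libraries alone. Sqstm1, which encodes p62, the adaptor that gathers with keratins 8 and 18 in Mallory-Denk bodies, rose to 598 ± 71.6 CPM in liver, against 190 ± 9.71 CPM in blood (SD, n = 3 each; log2 fold change 1.65, adjusted p by edgeR 0.000538). Tgm2, a transglutaminase that cross-links keratin 8, rose to 3470 ± 1420 CPM in liver, against 205 ± 127 CPM in blood (log2 fold change 4.08, adjusted p by edgeR 0.00128). Both are made by many cell types, blood cells included, and were far more abundant than Krt8. Plec, encoding plectin, a linker of intermediate filaments, and Ywhaz, a 14-3-3 protein gene, were not called, with log2 fold changes of -0.42 and -0.02. The other 2 genes called, Ppl and Evpl, encode the plakins periplakin and envoplakin and were also chosen after their values were seen, with 11.8 ± 1.56 CPM in liver, against 1.45 ± 0.759 CPM in blood for Ppl.

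Vim, which encodes vimentin, the intermediate filament protein of blood and connective tissue cells, fell to 670 ± 46.4 CPM in liver, against 1500 ± 351 CPM in blood (log2 fold change -1.17, adjusted p by edgeR 0.00546). Of 4 tested non-keratin intermediate filament genes it was the only one called, while the lamin genes Lmnb1, Lmna and Lmnb2 had log2 fold changes of 0.83, 0.86 and 1.01.

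Of 6 tested epithelial transcription and splicing factors, 3 were called higher and 2 lower, with a median log2 fold change of 0.66. Over all tested genes 17.4% were called higher and 14.2% lower. Hnf4a (0 blood counts) and Grhl1 (13, 4 and 2) could not pass the filter through the blood libraries alone. Ovol1, called lower, had 7, 11 and 5 liver counts and could not pass through the liver libraries alone. The direction of these genes was thus largely set by the filter, and neither the numbers called nor the median is evidence of a difference. Hnf4a had 2.35, 9.76 and 17.1 CPM in liver libraries 1, 2 and 3, against 0 counts in each blood library. With the floor of 3 counts in place of the blood group, it was at least 131-fold higher. Grhl1, a regulator of epithelial junction genes, rose to 4.43 ± 2.01 CPM in liver, against 0.473 ± 0.414 CPM in blood (log2 fold change 3.21, adjusted p by edgeR 0.00927). Klf5, a factor of proliferating epithelia, fell to 15.2 ± 9.47 CPM in liver, against 39.7 ± 10.2 CPM in blood (log2 fold change -1.39, adjusted p by edgeR 0.0448), a call lost without liver library 2 (0.124) or 3 (0.0535) or blood library 1 (0.1) or 2 (0.0856), and with liver library 3 and blood library 1 both left out (0.131).

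NOTCH and YAP signalling, which act upstream of Sox9 in duct formation, gave 3 genes called higher and 3 lower of 9 tested. Over all tested genes 17.4% were called higher and 14.2% lower. The receptor genes fell, Notch1 to 249 ± 53.9 CPM in liver, against 693 ± 155 CPM in blood (log2 fold change -1.47, adjusted p by edgeR 0.00240), and Notch2 to 1000 ± 122 CPM in liver, against 1840 ± 35.2 CPM in blood (-0.87, 0.0116). Rbpj, the DNA-binding partner of activated NOTCH, rose to 208 ± 86.3 CPM in liver, against 69.5 ± 10 CPM in blood (log2 fold change 1.58, adjusted p by edgeR 0.00343). Amotl2, an angiomotin that restrains YAP, fell to 6.83 ± 3.20 CPM in liver, against 34.5 ± 18.1 CPM in blood (log2 fold change -2.33, adjusted p by edgeR 0.00570). The NOTCH target genes Hes1 and Hey1 were the other 2 called higher, chosen after their values were seen. With blood counts of 4, 12 and 2 (Hes1) and 0, 1 and 0 (Hey1), neither could pass the filter through the blood libraries alone. Their direction was thus largely set by the filter, and the number called higher is no evidence of a difference. Hes1 had 6.49 ± 3.58 CPM in liver, against 0.491 ± 0.491 CPM in blood, and Hey1 had 49 counts in liver and 1 in blood. The Hey1 call was lost without blood library 1 (adjusted p by edgeR 0.0513) or 3 (0.0546), and those of Hes1 (0.0537) and Notch2 (0.0849) with liver library 3 and blood library 1 both left out. Sox9 itself stayed at 14 counts in liver and 0 in blood.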

How the data were processed

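The 3 liver and 3 blood samples were sequenced in paired-end mode from total RNA with a kit for low input that keeps strand, per the labels' protocols. The deposited values are expected counts per gene. The submitters' processing notes name STAR and RSEM, the build GRCm38, FastQC 0.11.5 and limma, and the expected counts are of the kind that RSEM writes. The versions of STAR and RSEM were not given in the sources used here, nor were the filters of the counting or its use of strand.

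The expected counts were rounded. No 2 libraries of a group were the same library again (chi-square divided by its degrees of freedom 52.1 to 79.0). The filter was filterByExpr with a count of at least 10 and a total of at least 15, and scaling used TMM. The test was the robust quasi-likelihood F test of edgeR 4.0.16 in R 4.3.3 with no covariate. Benjamini-Hochberg adjustment ran over the 13458 genes left, at 0.05, and the code was tested on simulated data. Members below the filter were given an exact permutation test over libraries. A fold against a group at 0 was computed against 3 counts over the group. Intervals are exact (95%) and cover counting error only, since PCR copies are not marked. Coordinates are 1-based, from GENCODE release 21 for mouse (GRCm38), which matched 98.9% of the rows by identifier, and lengths are those of the main transcript. Promoter sequences are from RefSeq (GRCm38.p6).

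The members and lists were chosen with earlier results of these data known. Beside all 8 members, the text names in each list up to 4 genes with the highest mean CPM over the 6 libraries, and the 5 tested genes that correlate best with the most abundant keratin and non-keratin member. Some genes that this rule takes are not reported here. The alternatives tried were RLE scaling, no filter on low counts, DESeq2 1.42.0, limma-voom (limma 3.58.1), a replicate block, each library left out in turn, liver 3 and blood 1 left out together, scaling by total counts for levels per length, and, added after the data were seen, Krt8 summed with Krt8-ps.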

Additional observations from a re-analysis of the deposited data

How the results depend on the processing

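The log2 fold changes of Krt8, Krt18 and Krt7 kept their sign under all 13 alternatives. Krt18 was called higher in 12 of 13, Krt7 lower in 12 of 13 and Krt8 higher in 5 of 13, with adjusted p for Krt8 from 0.00280 to 0.265 over edgeR, DESeq2 and limma. For Krt8 the call was lost with no filter (7.08, adjusted p 0.112), with limma-voom (6.72, 0.265), with the replicate block (6.38, 0.0906), and with liver 3 and blood 1 both left out (10.16, 0.0837), where blood is left at 0 counts and the value is no size. Without each library in turn Krt8 gave 6.23 to 11.03 and was called in 2 of 6 edgeR fits. It was lost without liver 2 (adjusted p 0.0502) and without blood 1 (0.0535), 2 (0.0815) or 3 (0.0683). Krt18 gave 5.29 to 6.71 and Krt7 -1.93 to -1.51, both called in all 6 of these edgeR fits. Krt18 was lost with limma-voom (5.61, adjusted p 0.136), and Krt7 with liver 3 and blood 1 both left out (-1.36, edgeR adjusted p 0.0586). The members called higher, 2 in the reported fit, became 1 with no filter, 0 with limma-voom, 1 with both libraries left out and 1 to 2 without each library. The 1 member called lower became 0 with both left out. The causes were not tested. With both left out, 1195 genes were called lower, against 1916, and 1631 higher, against 2336. The median log2 fold change of all tested genes, 0.04, was 0.42 with no filter and 0.19 with DESeq2.

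Whether sample numbers pair the libraries was not settled, since correlations this small over 3 libraries per group cannot decide it. Deviations of same-numbered liver and blood libraries correlated at 0.0541, 0.156 and 0.0225. The same-numbered blood library was the best match for liver 1 and for liver 2, but liver 3 correlated best with blood 1 (0.12). With the replicate block 1 member was called higher, Krt8 had a log2 fold change of 6.38 (adjusted p by edgeR 0.0906), Alb had 5.72 (0.143), the haemoglobin genes Hba-a1 and Hba-a2 were called lower at -2.34 (0.0229) and -2.65 (0.0337), and 2322 genes were called higher and 2312 lower.

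Among other named genes, 6 values changed sign, none of a called gene. Without each library in turn, the platelet marker Pf4 ran from -2.28 to 0.35, Spint2 from -0.55 to 0.04 and Ywhaz from -0.20 to 0.18. With both left out, Pf4 was at 0.29 and Ywhaz at 0.29. Of the others, 832 stayed on their side of the threshold, 19 became called and 92 lost their call. Krt19, Epcam, Sox9 and Cldn7 did not pass the filter. With no filter edgeR gave adjusted p of 0.0920, 0.395, 0.139 and 0.575. Fewer than 20 counts of each in liver set the limit there.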
